A study of Caenorhabditis elegans with 18 samples.

Results

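The comparison described here set wild-type Caenorhabditis elegans hermaphrodites exposed to ascr#10 against worms on water-treated plates at 58 h after L1 synchronization, in the second of 2 collections made at that age. It holds 6 of the 18 RNA-seq samples of the series, 3 ascr#10 and 3 water, chosen by their labels, and all 15542 genes with enough counts in these 6 samples were tested. All 6 are whole worms of strain N2, hatched after hypochlorite treatment, arrested as starved L1 larvae, and raised on OP50 bacteria at 20 °C with 30 to 50 worms per plate. The ascr#10 plates received 2.2 fg of the compound in 100 µL on 60 mm plates or 1.1 fg in 50 µL on 35 mm plates; control plates received water in the same volume. The compound came from an ethanol stock that was thinned with water, and the labels describe the controls as water alone. Delayed or abnormal worms and males were removed before harvest. The design text states that the 58 h samples were collected and sequenced again because the first sequencing was not deep enough. The other 12 samples are the first collection, with ascr#10 and water at 50 h and at 58 h.

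Ascarosides are small signalling lipids that C. elegans secretes and senses. ascr#10 is a male-enriched ascaroside, known to act on the hermaphrodite reproductive system. A hermaphrodite first makes sperm, stores it, and then makes only oocytes, which take up yolk produced by the intestine. Its germline is a large part of the animal's RNA, and X-linked genes are largely silent in germ cells while they are active in somatic tissues.

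The 6 libraries held 54285989 to 72251267 estimated counts each, against 25630681 to 32932976 in the first collection. Ribosomal RNA genes took 0.426 to 0.543% of the counts with ascr#10 and 0.517 to 0.746% with water, and the mitochondrial genome 1.16 to 1.29% and 1.23 to 1.39%. The first principal component of log2 CPM (counts scaled to a fixed library total) carried 37.3% of the variance and put the ascr#10 samples at -18.7 to -14.6 and the water samples at 16.2 to 17.2. The second carried 20.2% and set ascr#10 replicate 1 (21.7) apart from ascr#10 replicate 2 (-21.1). Replicates of a group differed beyond sampling noise, and the biological coefficient of variation was 2.82%. The labels call the 3 samples of each condition independent without naming separate cultures, so the p-values speak of the spread among these libraries, which may be technical.

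Markers of several cell types were read first. The 9 hermaphrodite germline markers summed to 4939 to 4944 CPM with ascr#10 and 4573 to 4624 CPM with water. The 5 intestinal markers, in contrast, summed to 14770 to 15250 CPM with ascr#10 and 16200 to 17610 CPM with water. Nearly all of that sum came from the X-linked yolk gene vit-2, whose levels are given below. All 5 intestinal markers were called lower. Male markers were near 0: 7 of 11 were too low to test, and the other 4 summed to 1.18 to 1.64 CPM with ascr#10 and 1.26 to 1.49 CPM with water. Sperm markers summed to 16.3 to 17.4 against 21.7 to 22.7 CPM and pharynx markers to 113 to 134 against 202 to 214 CPM. Body wall muscle markers summed to 2198 to 2305 against 2733 to 2904 CPM. Each of these sums was lower in every ascr#10 sample. The 5 neuronal markers nearly touched, at 252.2 to 272.7 against 273.6 to 283.9 CPM, and 2 of them were called lower. The summed synaptic and neuronal list of 77 genes overlapped, at 2236, 2319 and 2304 against 2300, 2369 and 2333 CPM. The somatic gonad markers overlapped, at 807 to 828 and 809 to 829 CPM. In RNA from whole worms, fewer cells of a type and less RNA per cell cannot be told apart, and these shifts stand beside all results below.

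Most genes of the sperm, muscle, intestinal and transthyretin-related lists were lower with ascr#10, and most of the maternal regulator, eggshell, mitotic, replication, proteasome and CCT chaperonin lists were slightly higher. At an adjusted p under 0.05 (edgeR quasi-likelihood test, Benjamini-Hochberg over all tested genes), 1786 genes were higher (11.5% of those tested) and 2569 were lower (16.5%). The effects were small: the quartiles of all log2 fold changes were -0.21 and 0.07, and the median was -0.01. A change of 1.5-fold or more was reached by 36 higher (0.232%) and 375 lower genes (2.41%). Among the 8731 genes with a mean of at least 5 CPM, 50 were lower and 0 higher at that size (0 also at an unadjusted p under 0.05 and by DESeq2), with 1741 and 1669 called lower and higher at any size. In 18.8% of tested genes every ascr#10 sample was above every water sample and in 23.3% below, and 39.5% of all tested genes had an unadjusted p under 0.05. The balance moved with the scaling: upper-quartile factors gave 1230 higher and 2725 lower, and relative log expression factors 2359 and 2459. limma on log2(TPM + 1), which changes the test and the measure as well, gave 449 and 2164. Without water replicate 3 there were 989 higher and 1871 lower, without ascr#10 replicate 3 1171 and 2024, and without water replicate 1 1179 and 2113.

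**Figure D1:**
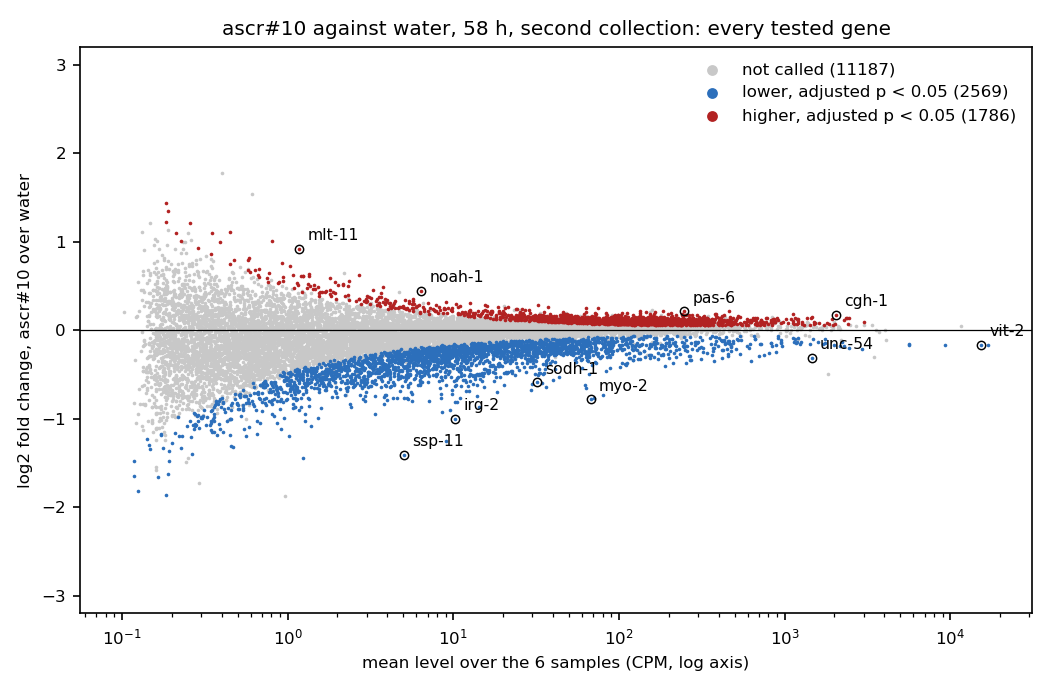
Log2 fold change of ascr#10 over water (vertical axis) against the mean level in CPM over the 6 samples (horizontal, log axis) for the 15542 tested genes, coloured by the edgeR call; circles mark genes named in the text. Lower calls reach further from 0 than higher calls at every level, and the 1786 higher calls lie mostly among abundant genes.

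The abundance of a gene and the direction of its change went together. In the most abundant tertile of tested genes (means of 32.7 CPM and more) 1469 were higher and 648 lower, with a median log2 fold change of 0.05. In the middle tertile 253 were higher and 1459 lower, median -0.07. In the least abundant tertile, below 2.13 CPM, 64 were higher and 462 lower, median -0.15. Transcript length separated the genes less, with medians of -0.03, -0.02 and 0.01 from the shortest to the longest tertile.

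Among genes with at least 5 CPM, the fall was largest for ssp-11 (WBGene00006040, chromosome IV, 4999485 to 4999814, minus strand, WBcel235), a sperm-specific gene. It was at 1.96, 3.09 and 3.23 CPM in the 3 ascr#10 samples and at 6.25, 8.44 and 7.36 CPM in the water samples, 2.65-fold lower (edgeR adjusted p = 0.00087). F14F9.4 (WBGene00017467, V, 5132741 to 5137118) was at 6.22, 4.57 and 5.32 CPM against 12.6, 13.2 and 12.6 CPM, 2.38-fold lower (edgeR adjusted p = 3.2e-08). Both were ranked among called genes whose ascr#10 samples all lay below the water samples, so that separation was set by the choice. ssp-11 was below 5 CPM in every ascr#10 sample and met the condition of a mean of 5 CPM only through its water samples.

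irg-2 (WBGene00016783, V, 4042181 to 4043601), an infection-response gene, was at 6.68, 6.67 and 7.18 CPM with ascr#10 and at 13.6, 13.8 and 13.7 CPM with water, 2.00-fold lower (edgeR adjusted p = 1.3e-08). Its groups were far apart relative to their spread. The other members of the lowest 12 were the neighbouring X-linked P-glycoprotein genes pgp-5 and pgp-6 (-0.92 and -0.90), the transthyretin-related ttr-26 (-0.86), E03H4.8 (-0.82), the O-acyltransferase homolog oac-31 (-0.81), pqn-36 (-0.80), rrn-2.1 of the ribosomal RNA cluster (-0.80), T23B3.5 (-0.78) and the pharyngeal myosin myo-2 (-0.78). pgp-5 and pgp-6 are similar in sequence, and reads may be shared between them.

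The smallest p-value of all belonged to Y58A7A.3 (WBGene00021977, V, 5077854 to 5080903). It was at 52.0, 52.6 and 52.7 CPM with ascr#10 and at 88.6, 87.2 and 91.2 CPM with water, or -0.76 ± 0.03 (SE) in log2 terms (edgeR adjusted p = 2.2e-11). T28F4.5, oac-14, C49G7.10, F53B2.8 and Y47H10A.5 also fell with small p-values, by 0.41, 0.61, 0.49, 0.46 and 0.56 on the log2 scale.

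Among called genes of at least 5 CPM without overlap, the rises were led by noah-1. noah-1 (WBGene00016422, I, 5874416 to 5878958), which encodes an apical extracellular matrix protein of the epidermis, was at 7.03, 7.58 and 7.49 CPM with ascr#10 and at 5.41, 5.36 and 5.43 CPM with water, 1.36-fold higher (edgeR adjusted p = 0.00015). The next 11, at log2 fold changes of 0.29 to 0.35, were Y82E9BR.17, Y39B6A.21, arrd-1, C08F1.6, W05F2.8, Y42G9A.3, H14A12.5, the F-box genes fbxc-51 and fbxa-124, ham-1 and fipr-13. That the 3 ascr#10 samples were above the 3 water samples in every one was a condition of the choice. arrd-1, C08F1.6, H14A12.5 and ham-1 lost their call without at least 1 library.

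Higher genes with the smallest p-values were abundant and tightly measured. perm-1, which is needed for the eggshell permeability barrier, was at 156.7, 156.0 and 156.8 CPM with ascr#10 and at 134.7, 135.5 and 135.7 CPM with water (0.21 ± 0.02 in log2 terms, SE; edgeR adjusted p = 2.4e-06). pas-6, a subunit of the 20S proteasome, was at 262.7, 269.3 and 267.4 CPM against 225.0, 235.2 and 227.7 CPM (0.22 ± 0.02; edgeR adjusted p = 2.8e-06). The other 4 were the Piwi gene prg-2 (0.22), the ribosomal protein gene rpl-37 (0.22), the histone H3 variant gene his-74 (0.20) and the chondroitin proteoglycan gene cpg-3 (0.22). In all 6 the groups did not overlap.

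**Figure D2:**
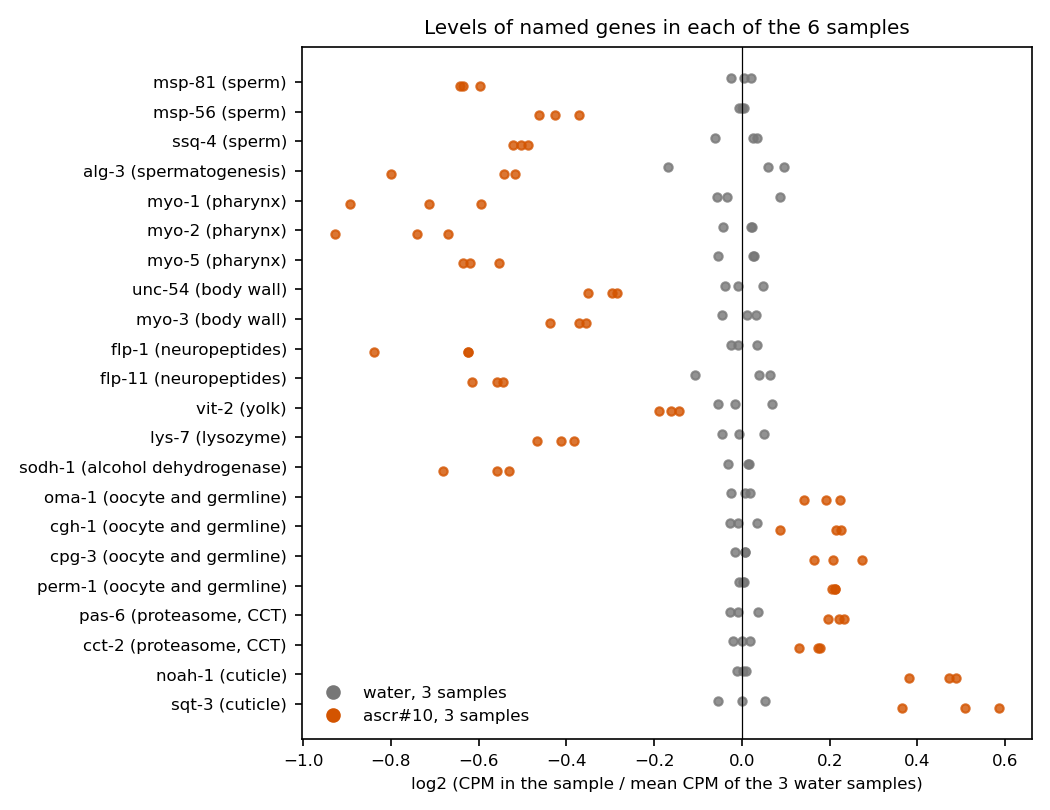
Level of 22 named genes in each of the 6 samples, as log2 of the CPM over the mean of the 3 water samples (horizontal axis); grey points are water and orange points ascr#10, 3 of each per gene. The 2 colours do not overlap for any of the genes shown, with falls from vit-2 (-0.16) to myo-2 (-0.78) on the left and rises from cct-2 (0.16) to sqt-3 (0.49) on the right.

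Sperm genes were lower. The major sperm proteins form the cytoskeleton of the crawling nematode sperm and signal to oocytes. Of 28 tested msp genes 25 were lower and 0 higher, with a median log2 fold change of -0.47, against -0.01 over all tested genes. Their summed level was 269, 267 and 266 CPM with ascr#10 and 361, 376 and 372 CPM with water, so that the groups were well apart. msp-81 (WBGene00003467, IV, 9836034 to 9836417) was at 11.2, 10.8 and 10.8 CPM against 16.6, 16.9 and 17.1 CPM (-0.62 ± 0.05, SE; edgeR adjusted p = 1.4e-07). msp-78, msp-113 and msp-56 were lower by similar amounts (-0.67, -0.57 and -0.42), and msp-53, the most abundant member, was at -0.48. The msp genes are nearly identical copies, so the level of a single member is uncertain, while the sum is less affected.

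Of 67 other spermatogenic genes 37 were lower and 1 was higher, with a median of -0.41. The lower members included the sperm-specific genes ssq-4 (19.5, 19.7 and 19.3 against 28.1, 28.3 and 26.5 CPM; edgeR adjusted p = 2.5e-07), sss-1, ssq-1 and ssq-2, at -0.48 to -0.53. The sperm phosphatase gene gsp-3 was at -0.50, and spe-11, which encodes a sperm-supplied factor needed by the embryo, at -0.47. alg-3 and alg-4, Argonaute genes that act in spermatogenesis, fell by 0.61 and 0.57 and were the only 2 lower members of the germ granule and small RNA list. The 1 higher member, spe-39, is also required for vesicle transport outside sperm; it was at 98.5, 105.6 and 107.8 CPM with ascr#10 and 95.2, 94.7 and 93.4 CPM with water (0.14).

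Oocyte and egg genes were higher as a group, each by a small amount. Of 27 maternal RNA-binding regulators, which hold maternal mRNAs silent until they are needed, 23 were higher and 0 lower (median 0.12). oma-1 (WBGene00003864, IV, 8888976 to 8890999), required for oocyte maturation, was at 397, 411 and 420 CPM with ascr#10 and at 354, 364 and 362 CPM with water (0.19 ± 0.02, SE; edgeR adjusted p = 1.9e-05). Its partner oma-2 (0.14), the Pumilio-family genes puf-3 and puf-11 (0.16 and 0.17), gld-1 (0.13), car-1 (0.15) and the RNA helicase gene cgh-1 (0.18) were also higher. For cgh-1 the ascr#10 samples were at 2044, 2234 and 2253 CPM and the water samples at 1890, 1972 and 1915 CPM; the groups did not overlap, though ascr#10 replicate 1 lay closer to water than the other two. Without ascr#10 replicate 3, 16 of the maternal regulators were called. On log2(TPM + 1) the higher counts were smaller: 10 of the maternal regulators, 8 of the egg surface, 14 of the mitotic, 5 of the replication, 4 of the meiotic and 6 of the germ granule genes described next.

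Of 19 egg surface and eggshell genes 15 were higher and 0 lower (median 0.10). cpg-2, a chondroitin proteoglycan gene, was at 2528, 2496 and 2520 CPM against 2284, 2275 and 2279 CPM (0.14). egg-1, which encodes a sperm-binding protein of the oocyte surface, was at 0.13, and the vitelline layer gene cbd-1 at 0.10. rme-2, which encodes the receptor for yolk, was at 0.07 and lost its call without water replicate 2 or 3. cyp-31A5, whose family takes part in making the eggshell lipid layer, was also higher (0.14).

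Germline proliferation and meiosis lists had higher calls and no lower ones. The higher shares were 70.2% for mitotic, 59.5% for replication and 41.3% for meiotic genes. Of all tested genes 11.5% were higher, and of the most abundant tertile 28.35%. Whether these lists differ from other genes of like abundance was not tested. Of 57 mitotic cell cycle genes 40 were higher and 0 lower (median 0.09), among them the cyclin genes cye-1 (0.13) and cyb-3 (0.10), the Aurora kinase gene air-1 (0.13) and the cytokinesis gene cyk-4 (0.12). Of 37 DNA replication genes 22 were higher and 0 lower, with pcn-1, the sliding clamp PCNA, at 431, 420 and 417 against 381, 377 and 391 CPM (0.14); cdc-6 and mcm-6 were at 0.15 and 0.12. rnr-2, the most abundant member, was at 635, 596 and 614 CPM against 616, 615 and 618 CPM, overlapping. Of 46 meiotic chromosome genes 19 were higher and 0 lower, including the crossover gene cosa-1 (0.17), the synaptonemal complex gene syp-1 (0.13) and the polo kinase gene plk-2 (0.11). These counts rested on single libraries in part: without water replicate 3 they were 13 of the replication and 5 of the meiotic genes, and without water replicate 1, ascr#10 replicate 2 or ascr#10 replicate 3 there were 8, 11 or 10 meiotic genes.

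Of 24 germline stem cell and Notch genes 8 were higher and 0 lower. Higher shares were 33.3% in that list, 45.5% in the germ granule list below and 28.35% in the most abundant tertile of tested genes. sygl-1, a Notch target in stem cells, was at 0.14, puf-8 at 0.11 and gld-3 at 0.12. The higher count of the stem cell and Notch list ranged from 4 without ascr#10 replicate 3 to 15 without ascr#10 replicate 1. Of 55 germ granule and small RNA genes 25 were higher and 2 lower; wago-2 was at 0.18, ppw-1 at 0.14 and deps-1, a P granule gene, at 0.12. Without water replicate 3, water replicate 1 or ascr#10 replicate 3 that list had 14, 15 or 16 higher. Of 59 histone genes 7 were higher (11.9%, near the 11.5% of all tested genes) and 4 lower (6.78%). The linker histone gene his-24, which is X-linked, rose by 0.25 and htz-1 by 0.12, while his-37 fell by 0.19. Without water replicate 2 or 3 the lower histone count was 2.

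The apoptosis and engulfment list was split: 5 of 25 were higher and 3 lower. The caspase gene ced-3 (0.10) and the p53 gene cep-1 (0.10), which act in dying germ cells, were higher, while the engulfment receptor gene ced-1 (-0.13), nrf-5 (-0.25) and the nuclease gene nuc-1 (-0.19) were lower. The higher count was 2 without ascr#10 replicate 2 or water replicate 3 and 3 without ascr#10 replicate 3 or water replicate 1. Of 24 zygotic embryonic genes 3 were higher and 0 lower (median 0.10): elt-1 (0.22), vet-6 (0.17) and hlh-27 (0.60, at 0.947, 0.795 and 0.712 against 0.607, 0.515 and 0.485 CPM). Each of these 3 lost its call without at least 4 of the 6 libraries left out in turn. The 15 tested embryo markers summed to 49.5 to 50.3 CPM with ascr#10 and 43.7 to 46.5 CPM with water.

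The largest share of higher genes was in the proteasome, which breaks down ubiquitin-tagged proteins. Of 33 subunit genes 31 were higher and 0 lower, with a median of 0.13 and a range of 0.03 to 0.22. Their summed level was 8267, 8127 and 8141 CPM with ascr#10 and 7558, 7453 and 7508 CPM with water, without overlap. The core subunit gene pbs-1 and the regulatory particle genes rpn-9 and rpt-1 were at 0.17, 0.17 and 0.14. The CCT chaperonin folds actin and tubulin: 7 of its 8 subunit genes were higher and 0 lower, from cct-2 (448, 435 and 450 against 402, 397 and 392 CPM, 0.16) and cct-8 (0.14) to cct-5, which was at 0.08 with an edgeR adjusted p of 0.058. On log2(TPM + 1) the proteasome count was 22 and that of CCT 4.

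Other housekeeping lists leaned the same way with fewer calls. Of all tested genes 11.5% were higher, and of the most abundant tertile 28.35%. The shares were 41.3% for translation factors and synthetases, 50.0% for splicing factors and 50.0% for SUMO and ubiquitin. They were 34.6% for cytosolic ribosomal proteins, 18.3% for mitochondrial ribosomal proteins and 21.4% for ribosome biogenesis. Whether these lists differ from other genes of like abundance was not tested. Of 75 translation factor and tRNA synthetase genes 31 were higher and 2 lower, with eif-3.K at 0.16. Among splicing factors 17 of 34 were higher and 0 lower (hel-1, 0.11), and in the SUMO and ubiquitin core list 7 of 14 and 0 (ubc-9, 0.14). Cytosolic ribosomal proteins had 28 of 81 higher and 2 lower (median 0.06); rps-27 was at 0.11, and rla-0, the most abundant, at -0.02. That count was 14, 16 and 17 without water replicate 1, ascr#10 replicate 3 and water replicate 3, and 51 without ascr#10 replicate 1. Mitochondrial ribosomal proteins had 13 of 71 higher and 0 lower, and ribosome biogenesis genes 6 of 28 and 0. Without water replicate 3 the counts were 20 translation, 11 splicing, 4 SUMO and ubiquitin, 4 mitochondrial ribosomal and 2 biogenesis genes. The mitochondrial ribosomal count was 4, 5, 8 and 8 without water replicate 1, water replicate 2, ascr#10 replicate 2 and ascr#10 replicate 3, and the biogenesis count 3 without water replicate 2. On log2(TPM + 1) 6 translation, 6 splicing and 3 cytosolic ribosomal protein genes were higher.

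The direction of the cytosolic ribosomal protein calls followed the chromosome. All 28 higher ribosomal protein genes were autosomal, and the 2 lower ones, rpl-11.2 and rpl-25.1, were the only 2 X-linked members. rpl-11.2 was at 363, 335 and 346 CPM with ascr#10 and 394, 401 and 403 CPM with water (-0.20 ± 0.03, SE; edgeR adjusted p = 2.9e-05), whereas its autosomal paralog rpl-11.1 was at 1639, 1528 and 1519 against 1463, 1453 and 1475 CPM (0.09). For the other pair rpl-25.1 was at -0.15 and the autosomal rpl-25.2 at 0.14. In both pairs the groups of each gene did not overlap.

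In the nuclear-encoded respiratory chain list 6 of 7 X-linked genes were lower and 0 higher. Of its 44 autosomal genes 6 were higher and 0 lower, a share of higher calls near that of all autosomal genes (13.0%). The ATP synthase subunit gene asb-2 (X) was at 231, 239 and 236 CPM against 248, 272 and 262 CPM (-0.15), and its autosomal paralog asb-1, known for its role in the germline, at 303, 290 and 294 against 272, 263 and 271 CPM (0.14). asg-2 (X) was at -0.12 and asg-1 at 0.12, and ucr-2.1 (X) at -0.17 and ucr-2.3 at 0.16. Without water replicate 2 there were 3 higher respiratory chain genes, and asg-1 lost its call. Among translation factors eef-1A.2 (X) was lower (-0.14) and eef-1A.1 did not pass the test (0.05). The pair iff-2 (-0.21) and iff-1 (0.12), both autosomal, went apart as well; iff-1 is the germline form of the factor. The paralogs rpl-11.1, rpl-25.2, asg-1 and iff-1 were chosen after their values were seen. Similar paralogs may share reads.

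Over the whole genome, 49 of 2170 tested X-linked genes were higher (2.26%) and 475 lower (21.9%), with a median of -0.10. On the autosomes 1736 of 13341 were higher and 2089 lower, with a median of 0.00. At 5 CPM and more, where the medians were -0.08 and 0.04, 35 of 1086 X-linked genes were higher and 391 lower, against 1633 and 1345 of 7628 autosomal genes. X-linked genes took 8.68, 8.70 and 8.73% of the CPM of tested genes with ascr#10 and 9.46, 9.83 and 9.60% with water. With the 5 X-linked vitellogenin genes set aside the shares were 5.22, 5.27 and 5.26% against 5.68, 5.82 and 5.77%, again without overlap. Chromosomes I and III had more higher than lower genes (427 and 300, 382 and 287), and chromosome V fewer (270 and 642). Abundance, which went with direction, also differed: the median level was 22.5 CPM on I, 24.8 on III, 4.39 on V and 5.03 on X. Among genes of 5 CPM and more it was 18.9 CPM on X and 53.9 CPM on the autosomes. Whether the chromosomes differ at like abundance was not tested. The X-linked lower count ranged from 353 to 539 over all settings tried; the higher count was 29, 27 and 30 without ascr#10 replicate 3, water replicate 1 and water replicate 3, and 82 without ascr#10 replicate 1.

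**Figure D3:**
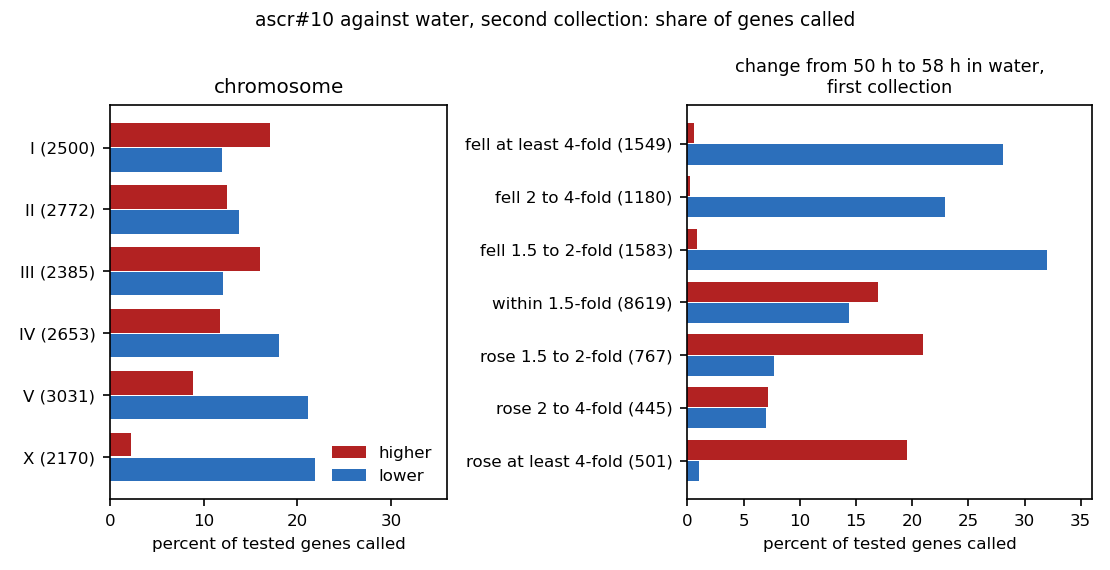
Percent of tested genes called higher (red) or lower (blue) with ascr#10 by chromosome (left) and by how the gene changed from 50 h to 58 h in the water samples of the first collection (right); numbers of genes are in parentheses. On X 2.26% were higher and 21.9% lower, and among genes that fell at least 4-fold with age 0.581% were higher and 28.1% lower.

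**Figure D4:**
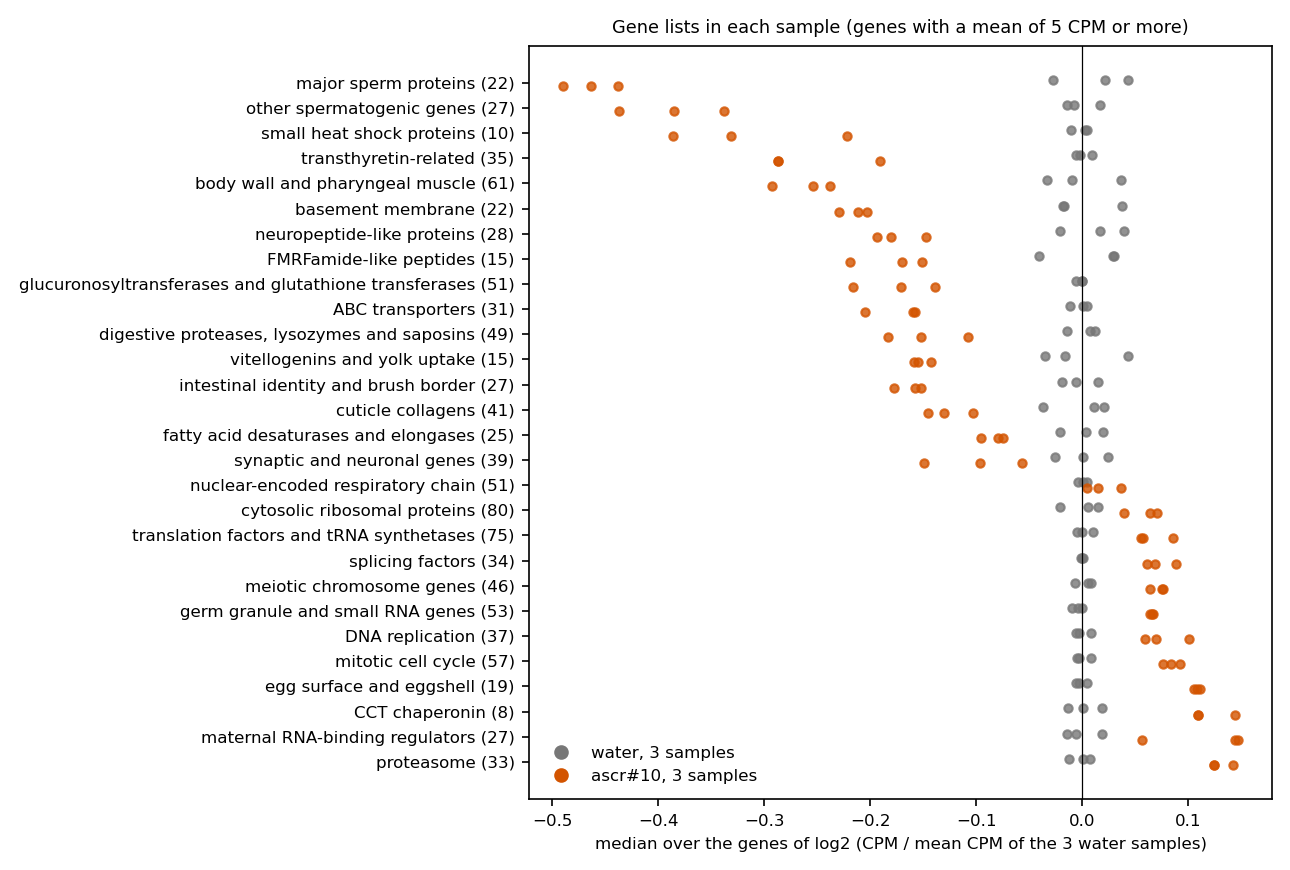
Median over the genes of each list (those with a mean of 5 CPM or more, number in parentheses) of log2 CPM relative to the water mean, for each water sample (grey) and ascr#10 sample (orange). The sperm, heat shock, muscle, peptide and gut lists lie left of the water samples and the germline, chaperonin and proteasome lists lie right of them.

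Muscle genes were lower, and the gene with the largest fall among them belongs to the pharynx, the feeding pump. Of 62 muscle genes 52 were lower and 1 higher, with a median of -0.26. The pharyngeal myosin heavy chain gene myo-2 (WBGene00003514, X, 12468061 to 12475348) was at 44.7, 53.5 and 50.9 CPM with ascr#10 and at 86.3, 86.4 and 82.7 CPM with water, 1.71-fold lower (edgeR adjusted p = 1.4e-05). Its companion myo-1 (I, 7258946 to 7267057) was at 54.2, 66.7 and 61.5 against 96.9, 107.0 and 98.4 CPM (-0.73 ± 0.08, SE; edgeR adjusted p = 0.0025). For both, ascr#10 replicate 1 was the lowest sample and no sample of one group reached the other.

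myo-5 fell by 0.60, the pharyngeal troponin C gene tnc-2 by 0.63 and marg-1 by 0.64. In body wall muscle the major myosin gene unc-54 (I, 14855901 to 14863482) was at 1267, 1327 and 1317 CPM against 1573, 1670 and 1606 CPM (-0.31 ± 0.02, SE; edgeR adjusted p = 1.5e-07), myo-3 was at -0.39 and the twitchin gene unc-22 at -0.37. tni-4, another troponin gene, was at -0.49. The difference in size between pharyngeal and body wall genes was not tested. The 1 higher member was the actin gene act-2 (0.12), one of several nearly identical actin genes. The basement membrane list had 17 of 26 lower and 0 higher (median -0.21), with the collagen IV genes emb-9 and let-2 at -0.32 and -0.34, mig-6 at -0.34 and ost-1, the SPARC gene, at -0.29.

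Some genes of neuropeptides, the secreted peptide messengers of neurons, were lower and none was called higher, while most did not pass the test. Of 30 FMRFamide-like peptide genes 10 were lower and 0 higher (median -0.21), and of 75 neuropeptide-like genes 22 and 0 (-0.17). The lower shares were 33.3% and 29.3%, against 16.5% of all tested genes and 28.17% of the middle abundance tertile. Whether the 2 lists differ from other genes of like abundance was not tested. flp-1 (WBGene00001444, IV, 9144705 to 9146128), expressed in the AVK interneurons, was at 8.22, 9.54 and 9.54 CPM with ascr#10 and at 14.6, 14.5 and 15.1 CPM with water, 1.61-fold lower (edgeR adjusted p = 4.9e-07). flp-11, known for promoting sleep, fell by 0.57, nlp-14 by 0.53 and flp-14 by 0.28, while flp-28, the most abundant, overlapped between groups (-0.02).

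Of 77 synaptic and neuronal genes 19 were lower (24.7%, against 16.5% of all tested genes) and 3 higher (median -0.12). Several lower members act in peptide processing and dense core vesicles: ida-1 (-0.29), sbt-1 (-0.26), egl-21 (-0.23) and egl-3 (-0.22). The synaptic vesicle genes snb-1 (0.01) and rab-3 (0.02) did not pass the test. Whether peptide processing and dense core vesicle genes fell more than the rest of the list was not tested. Single libraries carried part of these counts: without water replicate 2 they were 11 synaptic, 6 FMRFamide-like and 10 neuropeptide-like genes, and without water replicate 3 and ascr#10 replicate 3 there were 6 and 10 neuropeptide-like genes. Without ascr#10 replicate 1 there were 6 higher synaptic genes. Insulin-like peptides (1 of 25 lower) and serotonin genes (1 of 18, bas-1 at -0.16) had few calls, and egl-3 and bas-1 each lost theirs without water replicate 3. In the insulin pathway 5 of 21 were higher and 5 lower (par-5 at 0.09, akt-2 at -0.38), and in the TGF-beta pathways 8 of 21 were lower and 0 higher, with the receptor gene sma-6 at -0.31. Without water replicate 2 the lower counts of these 2 lists were 3 and 5.

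Intestinal genes were lower. Of 33 intestinal identity and brush border genes 20 were lower and 1 higher (median -0.16); the proton pump gene vha-6 was at -0.21, the intermediate filament genes ifc-1 and ifd-2 at -0.48 and -0.38, and the intestinal actin gene act-5 at -0.12. The transcription factor gene elt-2 was at -0.16, with an edgeR adjusted p of 0.050. Of 62 digestive protease, lysozyme and saposin genes 40 were lower and 0 higher: lys-7 was at 84.6, 89.7 and 87.8 against 116.4, 121.0 and 113.2 CPM (-0.42), lys-8 at -0.32, lys-1 at -0.27 and the cathepsin D gene asp-1 at -0.14.

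Yolk genes were lower while the yolk receptor was slightly higher. Of 16 vitellogenin and yolk uptake genes 9 were lower and 1, rme-2, was higher. vit-2 (WBGene00006926, X, 5101042 to 5106169) was at 14206, 14489 and 14668 CPM with ascr#10 and at 15590, 16976 and 16032 CPM with water (-0.16 ± 0.03, SE; edgeR adjusted p = 0.00037). vit-1, vit-3, vit-5 and vit-6 were at -0.21, -0.17, -0.17 and -0.17, and the vit-6 call was lost without ascr#10 replicate 1. Some vitellogenin genes are close copies, so their separate levels are uncertain.

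Lists of fat metabolism had more lower than higher calls, as did all tested genes (16.5% lower, 11.5% higher). Of 28 fatty acid desaturase and elongase genes 12 were lower and 0 higher; the delta-9 desaturase gene fat-6 was at 197, 197 and 199 against 232, 240 and 235 CPM (-0.25), fat-2 at -0.20 and fat-3 at -0.20. The acetyl-CoA carboxylase gene pod-2, counted in that list, was at -0.15. Of 66 beta-oxidation and ascaroside side-chain genes 28 were lower and 5 higher, with acs-7 at -0.62, acox-3 at -0.49, acox-1.1, which shortens ascaroside side chains, at -0.35, acs-22 at -0.36 and acdh-1 at -0.15. Lipases and lipid-binding genes had 15 of 38 lower and 2 higher: lbp-2 and far-1 were at -0.22, lbp-9 and plin-1 at 0.14 and 0.13.

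In central carbon metabolism 18 of 63 genes were lower and 10 higher. sodh-1 (WBGene00010790, V, 11888248 to 11889650), an alcohol dehydrogenase gene, was at 24.1, 26.2 and 26.7 CPM with ascr#10 and at 37.8, 39.0 and 39.1 CPM with water (-0.59 ± 0.04, SE; edgeR adjusted p = 4.0e-08). The glyoxylate cycle gene icl-1 fell by 0.35, the trehalose synthesis gene tps-2 by 0.37 and the gluconeogenesis gene pck-1 by 0.21. gpd-1 and gpd-4, nearly identical glyceraldehyde-3-phosphate dehydrogenase genes, were both at 0.18. The higher count was 5 without water replicate 3 and 6 without ascr#10 replicate 3 or water replicate 2.

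In the defence and detoxification lists more genes were called lower than higher, and most members did not pass the test. That was also so over all tested genes (16.5% lower, 11.5% higher) and in the middle abundance tertile (28.17% and 4.88%). Lower shares were 20.9% for nuclear hormone receptors, 23.4% for oxidative stress and metals and 29.0% for C-type lectins. They were 33.3% for cytochrome P450, 42.7% for glucuronosyl- and glutathione transferases, 43.8% for innate immunity and 46.8% for ABC transporters. Whether these lists differ from other genes of like abundance was not tested. Of 103 glucuronosyltransferase and glutathione transferase genes 44 were lower and 2 higher (ugt-26 -0.44, ugt-22 -0.23), of 60 cytochrome P450 genes 20 and 2 (cyp-25A3 -0.51), and of 47 ABC transporter genes 22 and 2 (abt-4 -0.36, pgp-14 -0.56). The innate immunity list had 14 of 32 lower and 0 higher (irg-7 -0.26), and C-type lectins 31 of 107 lower and 5 higher (clec-41 -0.28). Without ascr#10 replicate 2, ascr#10 replicate 3 or water replicate 3 the immunity count was 8, 9 or 8, without ascr#10 replicate 3 or water replicate 1 there were 3 higher lectins, and without ascr#10 replicate 3 or water replicate 3 that of the transferases was 28. Nuclear hormone receptors had 41 of 196 lower and 4 higher; nhr-7 was at -0.74, the lower count was 24, 26 and 25 without water replicate 1, ascr#10 replicate 3 and water replicate 3, and 8 were higher without ascr#10 replicate 1. In the oxidative stress and metals list 11 of 47 were lower and 7 higher; without ascr#10 replicate 2, ascr#10 replicate 3 or water replicate 2 the higher count was 4, 3 or 3.

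Small heat shock genes were mostly lower, and large chaperone genes were split. Of 14 small heat shock genes 8 were lower and 1 higher (median -0.32). Their summed level was not lower and overlapped, at 1567, 1645 and 1656 CPM with ascr#10 and 1538, 1602 and 1574 CPM with water. hsp-16.11, a stress-induced gene with a nearly identical copy, was at 93.5, 89.8 and 90.7 CPM against 118.7, 116.0 and 118.2 CPM (-0.37 ± 0.02, SE; edgeR adjusted p = 3.3e-08); hsp-16.2 was at -0.47 and hsp-12.2 at -0.46. The 1 higher member, sip-1, is known to be made in oocytes and embryos and was at 0.18. Of 32 large chaperone genes 9 were higher and 6 lower: hsp-1 was at 0.14, hsp-90 at 0.05 with no call, the stress-induced hsp-70 at -0.48 and the unfolded protein response gene xbp-1 at -0.15. Without ascr#10 replicate 1, 14 large chaperone genes were higher.

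Transthyretin-related genes, a secreted family, were lower: of 52 genes 37 were lower and 0 higher (median -0.26). In 2 other families most members did not pass the test: of 24 O-acyltransferase homologs 6 and 0 were lower and higher (median -0.32; oac-6 -0.44, oac-20 -0.42), and of 9 secreted SCP-family genes 4 and 0 (median -0.52). scl-2 was at 5.03, 4.84 and 5.03 CPM against 7.92, 7.37 and 7.44 CPM (-0.61). Of 14 excretory and glia genes 5 were lower and 1 higher. Among 6 coelomocyte genes 1 was higher and 1 lower; the lower one, cup-4, was near 1 CPM or less in all samples (-0.80 ± 0.21, SE; edgeR adjusted p = 0.010).

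Cuticle genes did not move as one group. Of 100 cuticle collagen genes 28 were lower and 5 higher (median -0.10). col-139, col-129 and col-81 fell by 0.34, 0.32 and 0.33, and the abundant col-140 and the adult-specific col-19 by 0.20 and 0.16. Moulting genes had 7 of 33 higher and 2 lower. Body-shape cuticle genes had 4 of 27 higher (14.8%) and 3 lower (11.1%), near the 11.5% and 16.5% of all tested genes, and differences between these lists were not tested. mlt-11, a protease inhibitor gene of the moult, was at 1.21, 1.83 and 1.58 CPM with ascr#10 and 0.800, 1.02 and 0.598 CPM with water (0.92); sqt-3 and dpy-14, collagen genes of early cuticles, were at 0.49 and 0.62. The higher collagens numbered 0 without water replicate 1 and 1 to 3 without ascr#10 replicate 2 or 3 or water replicate 2 or 3, and the higher body-shape genes 2 without water replicate 3. Single collagen genes can share reads with close copies.

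Of the lists not yet named, most had few calls or no single direction, while the V-ATPase and hedgehog-related lists leaned lower. The lower shares of these 2 lists were 33.3% and 20.4%, against 16.5% of all tested genes. Cuticlins and astacins had 3 of 44 lower and 1 higher, hedgehog-related genes 11 of 54 and 1, and chemoreceptor families 5 of 83 and 0. V-ATPase genes had 7 of 21 lower and 1 higher, tubulins and intermediate filaments 4 of 17 and 4, innexins 7 of 25 and 4, and the somatic gonad list 8 of 27 and 4. Heterochronic genes had 4 of 19 lower, all on X, and 1 higher. Of 12 mitochondrial genome genes 2 were lower, nduo-5 (-0.12) and ctc-3 (-0.17), and 0 higher; 8 were lower without water replicate 2. Left-out libraries also moved the hedgehog-related count (6 and 5 lower without water replicate 2 and 3), the chemoreceptor count (2, 2 and 3 without ascr#10 replicate 3, water replicate 1 and water replicate 2), the cuticlin count (1 lower without water replicate 3) and the higher somatic gonad count (8 without ascr#10 replicate 1, 1 without ascr#10 replicate 2 or 3, 2 without water replicate 1 or 3). Of 7 male-specific somatic genes 0 were called by edgeR or DESeq2, and 0 had an unadjusted p under 0.05. Over the 29 lists with 0 calls in a direction, 6 genes had an unadjusted p under 0.05 in that direction and DESeq2 called 0.

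Most genes called with ascr#10 had changed in the same direction with age. In the water samples of the first collection, which share no library with the 6 samples described here, 81.6% of genes changed between 50 h and 58 h. Of the 1780 higher genes with an age value, 1503 were higher at 58 h than at 50 h (84.4%) and 126 lower (7.08%). Of the 2547 lower genes 1957 were lower at 58 h (76.8%) and 259 higher (10.2%), whereas the genes without a call were split 39.0 to 38.5%. Genes that fell at least 4-fold with age had a median ascr#10 effect of -0.37, with 9 of 1549 higher and 435 lower. Those that rose at least 4-fold had a median of 0.18, with 98 of 501 higher and 5 lower. Over the 8730 genes with at least 5 CPM, the ascr#10 effect and the age effect had a Pearson r of 0.51 and a Spearman rho of 0.52 across genes, which are not independent replicates.

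Yolk, stress and some cuticle genes did not follow that pattern. vit-2 rose with age (0.77) and was lower with ascr#10 (-0.16), and vit-3 likewise (1.97 and -0.17). irg-2 rose with age by 1.74 and was among the lowest 12 called genes of at least 5 CPM with ascr#10, and hsp-16.11 was at 0.84 with age and -0.37 with ascr#10. sqt-3 fell with age by 3.08 and was higher with ascr#10 (0.49). In the germline the age effect and the ascr#10 effect had the same sign for oma-1 (0.66 and 0.19), cpg-2 (0.55 and 0.14) and pcn-1 (0.76 and 0.14). The same held for the falls of msp-53 (-3.11 and -0.48), myo-2 (-1.05 and -0.78) and unc-54 (-0.73 and -0.31).

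The first collection at 58 h, fitted on its own 6 samples, gave 352 higher (2.5%) and 693 lower genes (4.92%) of 14075 tested. Of the 14012 genes tested in both, 363 were lower in both and 35 higher in both; 155 were lower in the second collection and higher in the first, and 11 the reverse. The difference between the 2 effects was tested in a model of all 12 samples of 58 h. The effect in the second collection was the lower one for 1347 genes (8.7%) and the higher one for 239 (1.54%) of 15487 (edgeR adjusted p under 0.05); at 1.5-fold or more these were 261 (1.69%) and 96 (0.62%). That balance moved with the scaling and with single libraries. Relative log expression factors gave 1001 and 654, without ascr#10 replicate 1 of the second collection it was 1082 and 1106, and without water replicate 2 of the first collection 837 and 730. Effects in the 2 collections had a Pearson r of 0.18 and a Spearman rho of 0.09 across 8730 genes.

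Sperm genes were lower in both collections. In the first collection 23 msp genes and 31 other spermatogenic genes were lower and 0 higher, with medians of -0.56 and -0.54, and in each list 1 gene had a called difference toward the higher side and 0 toward the lower. Of the central carbon list 7 were higher and 9 lower in the first collection, and 12 of 63 had a called difference toward the lower side and 2 toward the higher. Single genes of several lists had similar values: ssq-4 was at -0.51 and -0.62 in the second and the first collection, sodh-1 at -0.59 and -0.58, icl-1 at -0.35 and -0.35, pck-1 at -0.21 and -0.18, and scl-2 at -0.61 and -0.50. Their differences did not pass the test, with edgeR adjusted p-values of 0.59, 0.66, 0.65, 0.47 and 0.39. These genes were picked for their similar values, and an uncalled difference does not show equal effects. In the SCP-family list, which holds scl-2, 3 of 9 genes had a called difference toward the lower side. The medians of that list were -0.52 in the second and -0.15 in the first collection.

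Muscle, basement membrane and gut genes differed between the collections. For 49 of 62 muscle genes the second effect was the lower one, with a median effect of -0.26 against 0.01 in the first collection. That was also so for 17 of 26 basement membrane genes (-0.21 and 0.01), 33 of 62 digestive genes (-0.15 and 0.04) and 30 of 103 transferase genes (-0.20 and 0.08). The genes with the smallest p-values for the difference had opposite signs: oac-14 was at -0.61 in the second and 0.28 in the first collection, Y58A7A.3 at -0.76 and 0.21, F53B2.8 at -0.46 and 0.42, faah-2 at -0.30 and 0.46, Y94H6A.10 at -0.27 and 0.48, and Y47H10A.5 at -0.56 and 0.34. In the other direction col-12 was at -0.04 and -1.22, acs-2 at -0.25 and -0.67, C30E1.9 at 0.08 and -0.39, W07G4.5 at 0.07 and -0.51, Y54G2A.36 at 0.28 and -0.37, and noah-1 at 0.45 and -0.22. Collection, sequencing run and depth changed together, so they cannot be told apart.

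**Figure D5:**
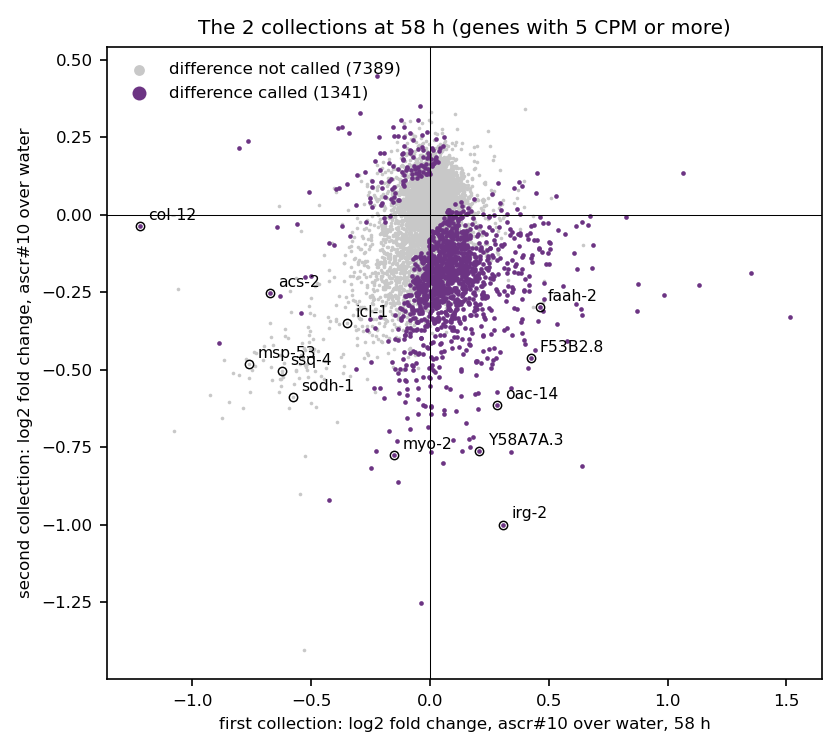
Log2 fold change of ascr#10 over water at 58 h in the second collection (vertical axis) against the first (horizontal axis) for the 8730 genes with at least 5 CPM; purple points have a called difference between the collections (1341 genes). Sperm genes and sodh-1 lie in the lower left, low in both, and most purple points lie below 0 on the vertical axis and near or above 0 on the horizontal one.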

How the data were processed

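RNA was sequenced from whole worms; the library kit keeps strand, per the labels' protocols, but for the strand setting, salmon version, genome build and annotation the sources used here give nothing. The deposited gene table holds the authors' estimated counts (46253 genes, made with salmon as the file names say, with 95.2% of values whole), and the authors also deposited TPM and length-scaled estimated counts. Counts were rounded, genes kept by edgeR's filterByExpr with a minimum count of 10 (15542 genes), scaled by TMM and fitted in the 6 samples with edgeR 4.0.16 (glmQLFit with robust estimation, glmQLFTest, R 4.3.3); calls are Benjamini-Hochberg adjusted p under 0.05. CPM use TMM-scaled library sizes. The difference between collections was the interaction term in the 12 samples of 58 h (15487 genes). Alternatives used DESeq2 1.42.0, limma 3.58.1 on log2(TPM + 1) or log2(TPM + 0.1) of the deposited TPM, other filters and scalings, and each sample left out in turn. Code was tested on simulated counts.

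Positions come from Ensembl's WBcel235 annotation by gene ID (15525 of 15542 matched). The members and the 64 gene lists were chosen with earlier results of these data known, so counts on a list are descriptions. Genes were named by rule: the 12 largest changes each way among called genes with at least 5 CPM and no overlap, the 6 smallest p-values each way, up to 4 called members each way and the most abundant member of each list, all tested members of lists of 12 or fewer, the 6 most different genes between collections each way, and markers. The text names 213 genes, of which 4 lie outside the rule. Same-numbered samples did not vary together (correlations of -0.049 to 0.017), so replicate numbers were not treated as pairs.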

Additional observations from a re-analysis of the deposited data

Results flagged for a closer look

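For 119 of the genes named above, the ascr#10 effect at 58 h differed between the second and the first collection in the interaction test (edgeR adjusted p under 0.05). Over all genes tested for that difference 1586 of 15487 passed (10.2%). The named genes were chosen in part by their changes in these data and by this difference. Their count and its split by direction therefore describe the choice as well as the collections. Values are the effect in the second minus that in the first collection, on the log2 scale. For 92 genes the effect was lower in the second collection. Muscle and basement membrane genes were myo-2 (-0.66), myo-1 (-0.625), myo-5 (-0.53), tnc-2 (-0.78), marg-1 (-0.63), tni-4 (-0.45), unc-22 (-0.35), myo-3 (-0.32), unc-54 (-0.24), let-2 (-0.39), ost-1 (-0.33), emb-9 (-0.32) and mig-6 (-0.29). Neuronal and signalling genes were flp-11 (-0.81), flp-1 (-0.64), nlp-14 (-0.51), flp-14 (-0.29), sbt-1 (-0.27), bas-1 (-0.27), ida-1 (-0.24), egl-21 (-0.21) and akt-2 (-0.31). Intestinal, digestive and yolk genes were ifd-2 (-0.80), ifc-1 (-0.71), act-5 (-0.38), vha-6 (-0.25), lys-7 (-0.63), lys-1 (-0.52), lys-8 (-0.42), asp-1 (-0.17), vit-1 (-0.42), vit-3 (-0.29), vit-6 (-0.24), vit-5 (-0.24) and vit-2 (-0.19). Genes of fat and carbon metabolism were faah-2 (-0.80), acs-7 (-0.66), acox-3 (-0.42), acox-1.1 (-0.40), lbp-2 (-0.30), fat-6 (-0.30), far-1 (-0.28), pod-2 (-0.26), fat-2 (-0.21), acdh-1 (-0.19), fat-3 (-0.16) and tps-2 (-0.14). Defence, detoxification, transport, nuclear receptor and stress genes were irg-2 (-1.34), irg-7 (-0.31), clec-41 (-0.46), ugt-22 (-0.68), ugt-26 (-0.40), cyp-25A3 (-0.41), abt-4 (-0.61), pgp-5 (-0.53), pgp-14 (-0.39), nhr-7 (-0.60), hsp-70 (-0.78), hsp-16.11 (-0.72), hsp-16.2 (-0.71), hsp-12.2 (-0.52) and xbp-1 (-0.32). O-acyltransferase homologs, a transthyretin-related gene, a coelomocyte gene and genes in no list were oac-31 (-1.49), oac-14 (-0.93), oac-6 (-0.91), oac-20 (-0.85), ttr-26 (-0.76), F14F9.4 (-1.25), Y58A7A.3 (-1.005), C49G7.10 (-0.94), Y47H10A.5 (-0.94), F53B2.8 (-0.92), Y94H6A.10 (-0.78), pqn-36 (-0.89), E03H4.8 (-0.60), T28F4.5 (-0.31) and cup-4 (-0.89). Cuticle collagen genes were col-140 (-0.33), col-19 (-0.28), col-129 (-0.21), col-81 (-0.15) and col-139 (-0.12). Engulfment, ribosomal, translation and mitochondrial genes were nrf-5 (-0.31), nuc-1 (-0.28), iff-2 (-0.28), asg-2 (-0.26), rpl-11.2 (-0.26), rpl-25.1 (-0.19), ucr-2.1 (-0.19), asb-2 (-0.18), eef-1A.2 (-0.11) and nduo-5 (-0.33).

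For 27 genes the effect was higher in the second collection. Cuticle and moulting genes were mlt-11 (1.27), col-12 (1.149), dpy-14 (1.01), sqt-3 (0.905) and noah-1 (0.64). Germline, proteasome and other listed genes were perm-1 (0.21), cpg-3 (0.17), his-24 (0.16), spe-39 (0.15), sip-1 (0.14), pas-6 (0.14), his-74 (0.13), prg-2 (0.13), oma-1 (0.13), gpd-1 (0.12), puf-3 (0.12), ucr-2.3 (0.11), rpn-9 (0.10) and rpl-37 (0.30). The remaining genes were Y54G2A.36 (0.61), C08F1.6 (0.59), W07G4.5 (0.55), C30E1.9 (0.44), Y42G9A.3 (0.39), acs-2 (0.38), Y82E9BR.17 (0.36) and fbxc-51 (0.32). acs-2 was called lower in both collections, and col-12 was called lower in the first and not called in the second. Without ascr#10 replicate 1 of the second collection the split of called differences over all genes was 1106 higher and 1082 lower. Groups of 3 samples are too small for a test of single outlying samples.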

How the results depend on the processing

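Of the 202 called genes named in the text, 169 kept their call and direction under all 18 alternatives; upper-quartile factors lost 3 and log2(TPM + 1) 26, and no called gene changed direction. Higher calls moved most with limma on TPM, which changes test and measure together: 1786 genes became 449 on log2(TPM + 1) and 453 on log2(TPM + 0.1), with lower calls at 2164 and 2107 against 2569. RLE factors alone gave 2359 higher and 2459 lower, upper-quartile factors 1230 and 2725, DESeq2 1971 and 2053. Calls of 1.5-fold or more went from 36 higher and 375 lower to 14 and 221 with DESeq2, 13 higher at a minimum count of 50, 15 higher on log2(TPM + 0.1), and 0 and 71 on log2(TPM + 1). Leaving out each sample gave 989 to 2522 higher, 1871 to 2621 lower, 24 to 42 higher and 300 to 418 lower by 1.5-fold.

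For the difference between collections, 239 higher became 654 with RLE factors and 573 with DESeq2, and 1347 lower became 759 on log2(TPM + 1). At 1.5-fold, 96 higher became 36 and 261 lower became 153 with DESeq2, and 110 were lower on log2(TPM + 1). Leaving out each sample gave 185 to 1106 higher, 809 to 1198 lower, and 83 to 129 higher and 162 to 249 lower by 1.5-fold. The cause was not tested.

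With the replicate number as a block, 2354 genes were higher and 2864 lower (278 and 1427 for the difference); all 202 named calls held, and the numbers do not pair the samples. Direction reversed in uncalled genes: rnr-2 (0.00898 with RLE factors and with DESeq2, 0.00956 with 18 samples; -0.0228 to 0.0213 over left-out samples), snb-1 (-0.00359 with upper-quartile factors, -0.0122 on both TPM scales; -0.00790 to 0.0426), rab-3 (-0.00501 and -0.00815 on log2(TPM + 1) and log2(TPM + 0.1); -0.0694 to 0.114) and flp-28 (-0.0922 to 0.0377). The called difference of eef-1A.2 became 0.0146 on log2(TPM + 1). Medians near 0 of the insulin pathway, respiratory chain, cuticlin, body-shape, oxidative stress, somatic gonad, heterochronic and male-specific lists changed sign under some settings.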
